A study of Mus musculus with 3 samples.

Results

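The cadherins and protocadherins were followed here in ribosome-bound RNA of the adult mouse dentate gyrus. They were taken as all gene symbols that begin with Cdh, Celsr, Fat or Pcdh and a number, plus the Pcdha, Pcdhb and Pcdhg symbols of the clustered protocadherins, and numbered 101 of the 32532 genes counted. Of these, 18 were classical cadherins (5 of type I and 13 of type II), 5 were other cadherins, 7 were Celsr or Fat genes, 12 were non-clustered protocadherins and 59 were clustered protocadherins. The clustered ones comprised 14 alpha, 21 beta and 19 gamma genes and 5 C-type genes at the ends of the alpha and gamma arrays. The RNA came from untreated C57BL/6J mice of the Penk-EGFP/Rpl10a line NIDA186, which carry a green fluorescent tag on the ribosomal protein Rpl10a, driven by control sequences of the proenkephalin gene Penk. Ribosomes with the tag were pulled down by an antibody to it, a method called TRAP, so the RNA of any cell that switches on the transgene enters, with some carry-over from other cells. All 3 libraries were such pull-downs of 1 group, replicates 1 to 3, with no unbound or wild-type library to set them against. The labels do not say whether the replicates came from separate animals or pools, so the tests measure only the spread between these libraries, which may be technical. In such bulk RNA, fewer cells of a type and less RNA per cell cannot be told apart.

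Cadherins are calcium-dependent adhesion proteins whose extracellular cadherin repeats bind those of the neighbouring cell. Classical cadherins hold synaptic membranes together and are tied to actin by catenins. The non-clustered or delta protocadherins bind more weakly and act in axon growth and synapse remodelling. Celsr and Fat proteins are giant cadherins of planar polarity. The clustered protocadherins lie in 3 neighbouring arrays on chromosome 18, where each neuron switches on a few promoters out of many, giving it a surface identity. In the dentate gyrus, Cdh9 is known from mouse work as an adhesion protein of the synapses that granule cells make onto CA3 neurons.

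The libraries held 5348761, 19195559 and 11059982 counts on genes in replicates 1 to 3. Of all reads listed, between 24.8 and 37.5% aligned to several places and were given to no gene. Members with near-identical copies, above all the clustered ones, may be counted low and with uncertainty for that reason, which was not tested. The strand setting of the counting was not given, so reads of overlapping antisense genes cannot be told apart from those of a member. A gene at 0 counts may still be present at up to 3 counts, which is 0.741, 0.126 and 0.255 CPM, the count scaled by the size of its library, in replicates 1 to 3, counting error only. Markers of dentate granule cells, the cells the dissection aims at, were found in all libraries (Prox1 had 2792, 10869 and 3047 counts), with 1 of 9 at 0 in replicate 1. Replicate 1 stood apart: 16.7% of the tested genes were at 0 there, against 1.37 and 5.29% in replicates 2 and 3.

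The members' own totals were 16239, 71474 and 56961 counts. Members with at least 10 counts numbered 43, 81 and 70 in replicates 1 to 3, and 40 had them in all 3. Thinned to the depth of replicate 1, replicates 2 and 3 still showed 73 and 63 such members. Members at 0 numbered 39, 12 and 26, and 11 were at 0 in every library: Cdh16 and Cdh17, known from kidney and gut epithelium, Fat2, known from cerebellar granule cells, the endothelial Pcdh12, Pcdhb1, and the alpha rows Pcdha1, Pcdha4, Pcdha6, Pcdha7, Pcdha6-g and Pcdha7-g.

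Levels of different genes were compared as CPM per kb of exon that no other gene shares, and as the log2 difference of that value from the median tested gene of the same library. A gene was called above or below when it lay more than 2-fold from that median gene with an adjusted p under 0.05 in edgeR's quasi-likelihood fit. Of the 76 members that passed a mean of 1 CPM and had a length, 11 (14.5%) were above, against 17.2% of all 12329 tested genes, so as a whole the members were called about as often as other genes. None of the 76 was below, but neither was any of the 12329 (0%). At an unadjusted p under 0.05, 0 members and 3 genes were below, and limma and DESeq2 called 0 members below. The 25 members not tested were too low or had no length, and the counts leave them out. By family, the calls above were 5 of 11 tested non-clustered protocadherins, 3 of 6 Celsr and Fat genes, 0 of 12 classical cadherins, 0 of 1 other cadherin and 3 of 46 clustered protocadherins. Limma called 4 non-clustered, 2 Celsr and Fat and 0 clustered genes above, and DESeq2 called 4, 1 and 0. The calls lost under both were those of Pcdh17, Celsr3, Pcdhb16, Pcdhga1 and Pcdhga10, and that of Celsr2 was lost under DESeq2. These shares are descriptions, and no test compared the families.

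**Figure D1:**
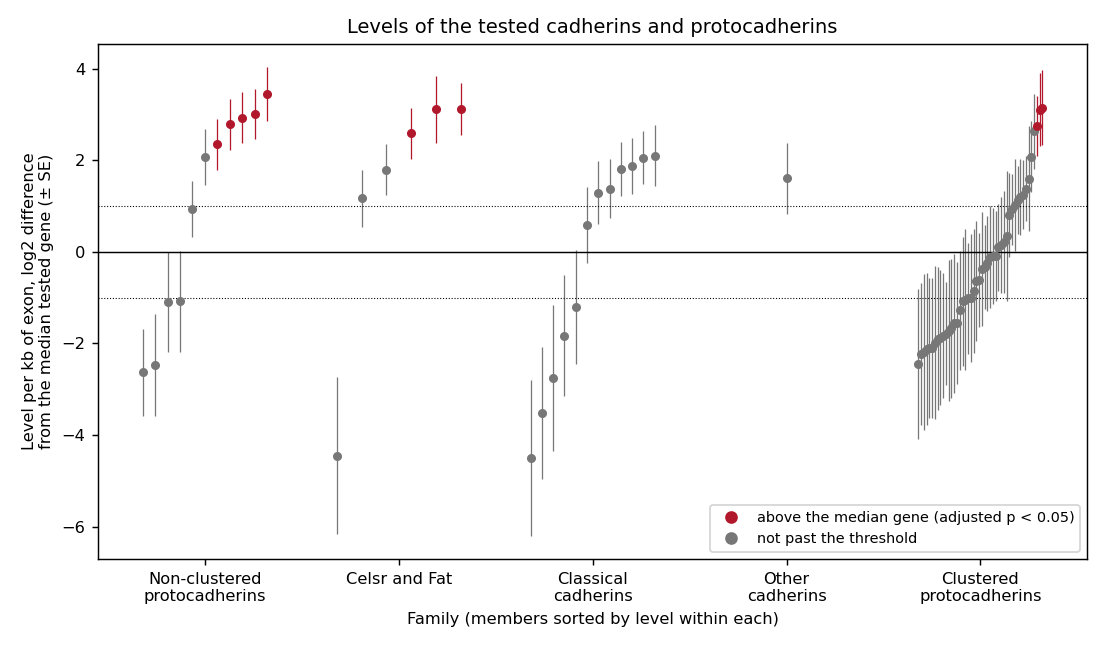
Log2 level of the 76 tested members relative to the median tested gene of the same library, per kb of exon (points, with SE), by family and sorted by level. Dotted lines mark 2-fold above and below, and red points are the 11 members called above. The non-clustered protocadherins and the Celsr and Fat genes supply 8 of them, and the clustered genes spread from below the median gene to about 3 above it on the log2 scale.

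The non-clustered protocadherins held the member with the highest mean level. Their median log2 level over all 12 was 1.29, 0.998 and 1.77 in replicates 1 to 3, against 0 for the median tested gene. The mean of their log2 levels was 0.068, since Pcdh12 at 0 and the low Pcdh15 and Pcdh11x weigh on it. Together they gave 762, 1279 and 2002 CPM. Pcdh1, of the delta1 branch, whose tails can bind a protein phosphatase, had 7.58, 33.1 and 70.0 CPM per kb in replicates 1 to 3, from 270, 6926 and 7253 counts. It was low in replicate 1 and high in replicate 3, and its mean of 36.9 ± 31.4 CPM per kb (SD, n = 3) gave a log2 level of 3.44 (SE 0.59, adjusted p = 1.84e-04). Pcdh9 (chromosome 14, 93013410 to 93890679, minus strand, GRCm38), also delta1, had 11.8, 26.2 and 36.5 CPM per kb (24.8 ± 12.4, SD, n = 3), a log2 level of 2.92 (SE 0.56, adjusted p = 0.00188). The third delta1 gene above the median, Pcdh7, was the most even of the 5, at 19.6, 18.2 and 24.9 CPM per kb (20.9 ± 3.54, SD, n = 3; log2 level 2.78, adjusted p = 0.00381). In contrast, Pcdh11x, the delta1 gene of the X chromosome, stayed at 32, 202 and 75 counts, or 0.544 ± 0.0784 CPM per kb (SD, n = 3).

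The delta2 branch, which signals to actin through the WAVE complex, had 2 of 5 genes above the median gene. Pcdh19 (chromosome X, 133582860 to 133688987, minus strand), whose loss in humans causes an epilepsy, had 13.8, 26.8 and 37.6 CPM per kb in replicates 1 to 3 (26.1 ± 11.9, SD, n = 3; log2 level 3.01, SE 0.54, adjusted p = 9.53e-04). Pcdh17, which in mouse organises presynaptic vesicle clusters, had 12.7, 12.5 and 21.8 CPM per kb (15.7 ± 5.28, SD, n = 3; log2 level 2.35, adjusted p = 0.0319). Both were highest in replicate 3. Pcdh10, which recruits the WAVE complex in growing axons, had 6.45, 3.61 and 6.84 CPM per kb and was not called (log2 level 0.94, adjusted p = 0.821). Pcdh8, or arcadlin, which in rat is induced by neuronal activity and pulls N-cadherin off the synapse, had 6, 398 and 51 counts, and Pcdh18 had 8, 555 and 15. These 2 genes were high in replicate 2 and near the floor in replicate 1. Of the remaining non-clustered genes, Pcdh20 had 4.81, 17.3 and 20.3 CPM per kb (log2 level 2.08, adjusted p = 0.150), and Pcdh15, part of the tip link of inner ear hair cells, had 9, 354 and 266 counts.

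The 5 calls among non-clustered genes depended on the libraries. Without replicate 1, 6 of 11 were above, Pcdh20 being the added one. Without replicate 2, the 2 called were Pcdh1 and Pcdh19, while Pcdh7 had a log2 level of 2.61 (adjusted p = 0.0980), Pcdh9 of 2.64 (adjusted p = 0.0902) and Pcdh17 of 2.21 (adjusted p = 0.303). Without replicate 3 none was called, although Pcdh1 stayed at 2.53 (adjusted p = 0.169), Pcdh19 at 2.64 (adjusted p = 0.123), Pcdh7 at 2.65 (adjusted p = 0.120), Pcdh9 at 2.53 (adjusted p = 0.178) and Pcdh17 at 2.06 (adjusted p = 0.484). Of all tested genes 16.8, 12.1 and 12.9% were called above without replicates 1, 2 and 3.

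**Figure D2:**
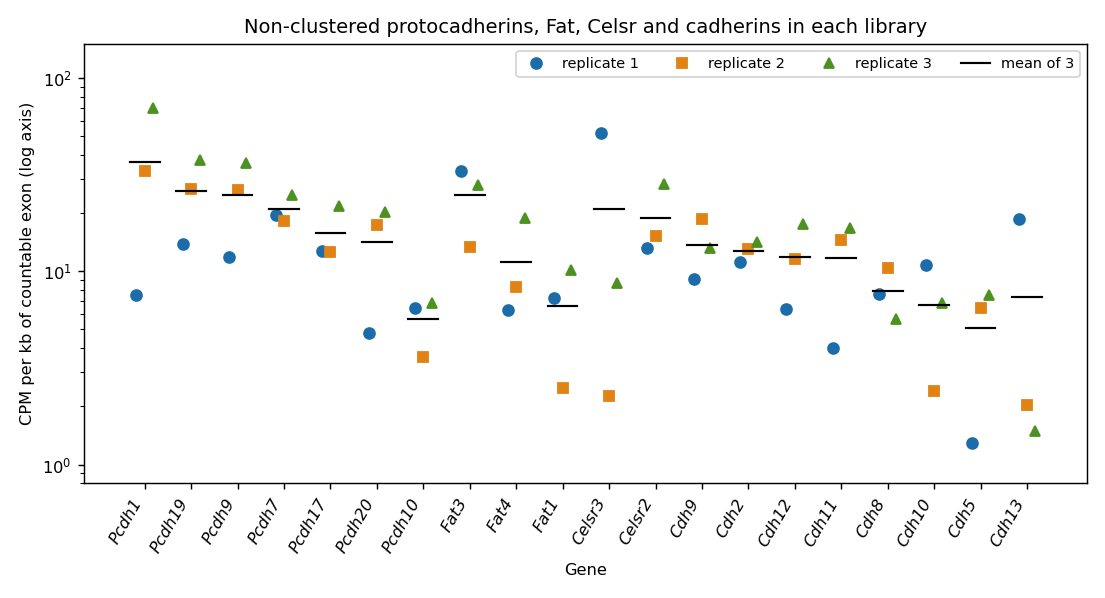
CPM per kb of countable exon (log axis) in replicates 1 to 3 (points) with the mean of the 3 (black line) for 20 non-clustered protocadherins, Fat, Celsr and cadherin genes. Pcdh7 and Cdh2 are nearly level, Pcdh1 spreads from 7.58 to 70.0, and Celsr3 and Cdh13 are high in replicate 1 alone.

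Among the Fat and Celsr genes, Fat3 and Celsr2 were well above the median gene in every library, and Celsr3 was so chiefly in replicate 1. Fat3 (chromosome 9, 15910189 to 16501285, minus strand), which shapes dendrites in the mouse retina, had 2877, 6833 and 7091 counts, or 33.1, 13.4 and 28.0 CPM per kb in replicates 1 to 3. Its mean was 24.8 ± 10.2 CPM per kb (SD, n = 3; log2 level 3.12, SE 0.57, adjusted p = 7.31e-04), and it was called with any 1 library left out, with adjusted p = 0.0262 without replicate 3. Celsr2, an adhesion receptor related to fly Flamingo, had 13.2, 15.1 and 28.2 CPM per kb (18.8 ± 8.15, SD, n = 3; log2 level 2.58, adjusted p = 0.00977). It was not past the threshold without replicate 2 (log2 level 2.45, adjusted p = 0.149) or without replicate 3 (2.20, adjusted p = 0.373).

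Celsr3, needed in mouse for long axon tracts, had 2537 counts in replicate 1 and 652 and 1243 in the deeper replicates 2 and 3. Per kb this was 52.0, 2.27 and 8.75 CPM, so replicate 1 lay far above the others. The mean of 21.0 ± 27.0 CPM per kb (SD, n = 3) gave a log2 level of 3.11 (SE 0.73, adjusted p = 0.00597), which was 0.68 (adjusted p = 0.933) without replicate 1. Fat4, the binding partner of Dchs1 in planar polarity, had 6.29, 8.27 and 18.8 CPM per kb (log2 level 1.80, adjusted p = 0.288, and 1.97 with adjusted p = 0.0483 without replicate 1), and Fat1 had 7.24, 2.50 and 10.1. Celsr1, the family member of skin and hair polarity, had 8, 59 and 0 counts, and Fat2 was at 0 in all libraries. The median log2 level of the 7 genes was 1.67, -0.56 and 1.55 in replicates 1 to 3, below the median gene in replicate 2. It averaged 0.88 ± 1.26 (SD over the 3 libraries). With Fat2 and Celsr1 so low, the mean level over the 7 genes was negative, at -0.52. Their summed level was 1713, 672 and 1513 CPM in replicates 1 to 3. Astrocyte markers summed to 3169, 1290 and 3090 CPM, with Slc1a2, which neurons can also hold, giving most of it and Gja1 at 0 in replicate 1. The part of astrocyte RNA in the Fat and Celsr values was not tested.

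The median log2 level of the classical cadherins lay below the median gene, at -4.70, -2.26 and -2.46 in replicates 1 to 3 over all 18 genes, 6 of which were too low to be tested. Over the 12 tested genes the median was 0.35, above the median gene. None of the 12 was called above by edgeR, while 2 had an unadjusted p under 0.05, and limma and DESeq2 called 0. This depended on the settings of edgeR. With the longest transcript as the length, 1 of 12 was called (Cdh2, adjusted p = 0.0314), against 17.8% of all genes. Without length correction 4 of 12 were called (21.3% of all genes), and 4 of 12 at a log2 threshold of 0 (28.8%). With no filter 5 of 18 were called (24.6% of all genes). The most even was Cdh2, or N-cadherin, the broad synaptic cadherin, with 363, 2508 and 1342 counts and 11.1, 13.1 and 14.1 CPM per kb. Its mean of 12.8 ± 1.52 CPM per kb (SD, n = 3) gave a log2 level of 2.05 (adjusted p = 0.131). The other type I genes were at or near the floor. Cdh4, or R-cadherin, had 1, 15 and 4 counts, the epithelial Cdh1 had 0, 8 and 0, and the placental Cdh3 and muscle Cdh15 each had 1 count in all.

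Type II cadherins, whose members mark different neuron groups, made up most of the classical RNA. Cdh9 (chromosome 15, 16728756 to 16857094, plus strand) had 131, 1562 and 551 counts, or 9.14, 18.5 and 13.2 CPM per kb (13.6 ± 4.71, SD, n = 3; log2 level 2.10, adjusted p = 0.182). It had the highest mean of the classical cadherins, ahead of Cdh2 by less than the spread of either. Cdh12 had 6.39, 11.6 and 17.6 CPM per kb, Cdh11 had 3.99, 14.6 and 16.7, and Cdh8 had 7.62, 10.4 and 5.70. Without replicate 1, 3 of 12 passed the threshold: Cdh9 (log2 level 2.17, adjusted p = 0.0414), Cdh12 (2.07, adjusted p = 0.0430) and Cdh11 (2.16, adjusted p = 0.0137). Cdh10 was low in replicate 2, at 10.8, 2.41 and 6.87 CPM per kb. Cdh18 and Cdh7 had 288 and 189 counts in replicate 2 and at most 14 in either other library. Cdh6, Cdh19 and Cdh20 ranged from 0 to 123 counts, and Cdh22 and Cdh24 were seen in replicate 2 alone, at 17 and 4 counts.

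Cdh5, or VE-cadherin, the adhesion protein of blood vessel walls, had 22, 648 and 374 counts. Its level was 1.29, 6.47 and 7.55 CPM per kb, low in replicate 1 and alike in replicates 2 and 3. The 7 endothelial and mural markers summed to 436, 890 and 327 CPM, lowest in replicate 3, unlike Cdh5. Most of this in replicates 1 and 2 was Rgs5, a mural gene. The other 6, summed after the Rgs5 values were seen, gave 48.4, 171 and 260 CPM, lowest in replicate 1 as Cdh5 was. Of these 6, Flt1, Pecam1 and Tek were lowest in replicate 1. Cldn5 was too low to rank, since its 0 there may stand for up to 0.741 CPM, above its values in replicates 2 and 3. Pdgfrb (24.9, 29.8 and 7.56 CPM) and Kdr (3.95, 16.2 and 2.55 CPM) were lowest in replicate 3. Flt1 had 73, 2058 and 2648 counts, Pecam1 had 0, 667 and 128 and Cldn5 had 0, 11 and 1. Their part in the Cdh5 level was not tested.

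Of the 5 other cadherins, only Cdh13 was tested. It encodes T-cadherin, which sits on the membrane by a lipid anchor and has no tail. It had 850, 543 and 198 counts, or 18.7, 2.03 and 1.496 CPM per kb, so replicate 1 alone was high. Its log2 level of 1.61 (adjusted p = 0.568) was -1.002 without replicate 1 (adjusted p = 0.830). Cdh23, the hair cell partner of Pcdh15, had 13 counts in replicate 3 and 0 in the other libraries, and Cdh26 had 2 counts in replicate 2.

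The clustered protocadherins were many but each mostly low. Over the 56 with a length, the median log2 level was -3.21, -0.97 and -1.08 in replicates 1 to 3. Only 46 of the clustered genes were tested. The reference is the median of tested genes, so members too low to be tested pull the family median down. Together the clustered genes gave 952, 494 and 717 CPM, of which the 21 beta genes gave 390, 235 and 310 and the 19 gamma genes 505, 165 and 265. The 14 alpha genes gave 22.0, 31.2 and 5.60 CPM and the 5 C-type genes 35.6, 61.6 and 137. At least 10 counts were found for 21, 49 and 40 of the 59 genes, and for 44 and 37 in replicates 2 and 3 at the depth of replicate 1. In all 3 libraries 18 genes reached 10 counts, in exactly 2 libraries 25, in 1 library 6 and in none 10. No alpha gene reached 10 counts in all 3, while 9 beta, 6 gamma and 3 C-type genes did. Alpha and gamma genes share 3′ exons within each array, and HTSeq is taken here to give reads there to no gene. In GENCODE a median of 53.6% of alpha and 44.8% of gamma exon bases were shared, against 0% of beta bases. If the counts were made so, levels of these genes rest on their own variable exons. The summed counts of the alpha and gamma arrays then leave out the shared part. The annotation behind the counts is not given, so this was not tested.

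**Figure D3:**
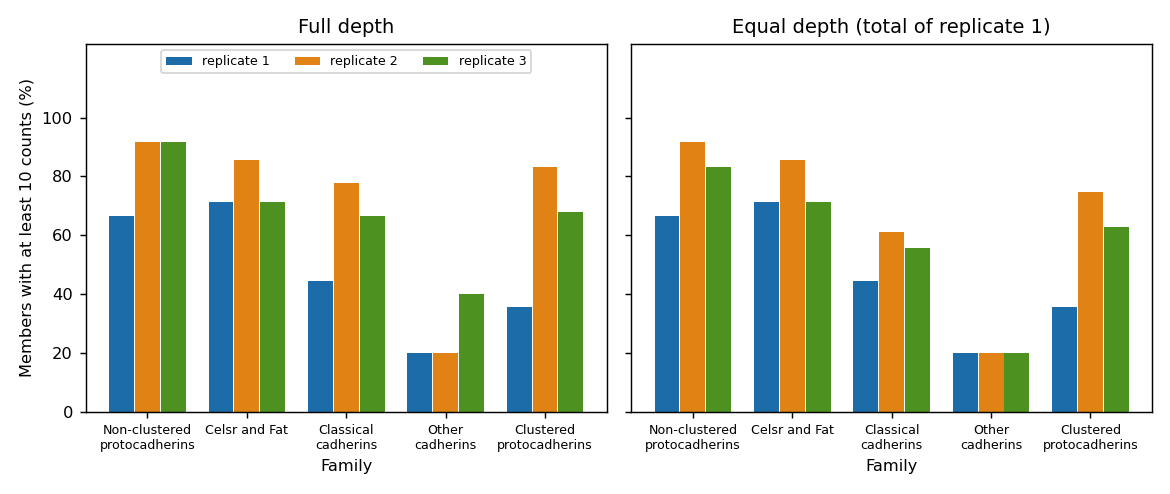
Share of each family's members with at least 10 counts, in percent, in replicates 1 to 3 (bars), at full depth and after thinning replicates 2 and 3 to the total of replicate 1. In replicate 1, 21 of 59 clustered protocadherins reached 10 counts, against 44 and 37 in replicates 2 and 3 at that depth.

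The beta genes, each a single coding exon, held a gene that was well above the median gene in all 3 libraries. Pcdhb16 (chromosome 18, 37477814 to 37483038, plus strand) had 682, 1351 and 641 counts, or 32.2, 10.9 and 10.4 CPM per kb (17.8 ± 12.5, SD, n = 3; log2 level 2.74, SE 0.65, adjusted p = 0.0145). It was among the 5 clustered genes with most counts in every library, the only gene that was, yet its call was lost without replicate 1 (log2 level 1.60, adjusted p = 0.498) and without replicate 2 (2.67, adjusted p = 0.123). Its neighbours Pcdhb17 and Pcdhb18 had 116, 848 and 583 counts and 138, 995 and 292 counts. Their levels of 8.14 ± 2.28 and 6.66 ± 1.69 CPM per kb (SD, n = 3 each) were even between libraries and not called. Other beta genes were far less even. Pcdhb6 had 314, 23 and 3 counts, Pcdhb11 had 0, 127 and 438, and Pcdhb22 had 121, 286 and 17. Scaled by library size, Pcdhb6 and Pcdhb22 were highest in replicate 1 and Pcdhb11 in replicate 3.

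The gamma genes called above the median gene were Pcdhga10 and Pcdhga1, and both rested on replicate 1. Pcdhga10 had 568, 266 and 211 counts, or 53.7, 4.28 and 6.85 CPM per kb (log2 level 3.15, adjusted p = 0.0113), and Pcdhga1 had 692, 384 and 197 counts, or 52.6, 4.97 and 5.15 CPM per kb (log2 level 3.10, adjusted p = 0.0113). Without replicate 1 their log2 levels were 0.67 (adjusted p = 0.89998) and 0.53 (adjusted p = 0.934). Neither was called when all exon bases served as the length (adjusted p = 0.173 and 0.124). Pcdhgb1 had the same shape, with 35.3, 5.33 and 5.96 CPM per kb, and was not past the threshold (log2 level 2.63, adjusted p = 0.0737). Pcdhga5, at 140, 310 and 558 counts, was lowest per kb in replicate 2, and Pcdhga11 had 0, 497 and 143 counts.

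C-type genes are thought to be switched on without the random promoter choice of the others, and Pcdhgc4 is known to be needed for interneuron survival in mouse. Pcdhac2, which serotonin neurons need for spacing their axons, was the evenest of the 5, with 93, 564 and 181 counts and 7.59, 7.82 and 5.07 CPM per kb (6.83 ± 1.52, SD, n = 3). Pcdhgc3 had 1.10, 3.39 and 4.90 CPM per kb, Pcdhgc4 0.497, 0.954 and 8.06, and Pcdhgc5 1.30, 4.14 and 13.9. These 3 gamma C-type genes were lowest in replicate 1 and highest in replicate 3, and Pcdhac1 was at the floor with 0, 8 and 0 counts. None of the 4 tested C-type genes was called above by edgeR, limma or DESeq2.

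Alpha genes were the sparsest. Pcdha8 had 84, 43 and 0 counts, Pcdha9 had 0, 303 and 10, and Pcdha12 had 0, 278 and 37. No tested alpha gene of 4 was called above by edgeR, limma or DESeq2. Pcdha11 had 47 counts in replicate 2 alone, Pcdha10 had 0, 10 and 13, and Pcdha2 and Pcdha3 had 2 and 7 counts in replicate 2. The rows Pcdha6-g and Pcdha7-g stand for read-through transcripts that begin with Pcdha6 or Pcdha7 and run to the end of the gamma array (for Pcdha6-g chromosome 18, 36967631 to 37841873, RefSeq on GRCm38.p6). Pcdha6 and Pcdha7 overlap these rows, so a read on them can be ambiguous and go to no gene. All 4 rows were listed at 0, as were Pcdha1 and Pcdha4. Whether ambiguous reads played a part in these values was not tested.

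The 5 highest clustered genes held more than 1 in 3 clustered counts in every library, most of them in replicate 1, and they were not the same 5. They took 68.2% of the 3855 clustered counts in replicate 1 (95% Wilson interval 66.8 to 69.7%), namely Pcdhga1, Pcdhb16, Pcdhga10, Pcdhgb1 and Pcdhb6. In replicate 2 they took 36.6% of 11755 counts (35.7 to 37.5%), namely Pcdhb16, Pcdhb18, Pcdhb17, Pcdhac2 and Pcdhgc5. In replicate 3 they took 39.8% of 8441 counts (38.8 to 40.8%), namely Pcdhgc5, Pcdhga12, Pcdhb16, Pcdhb17 and Pcdhga5. Replicates 2 and 3 had 3 of these 5 genes in common, and replicate 1 shared 1 with each. The intervals cover counting error only, since copies made by PCR are not independent molecules.

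**Figure D4:**
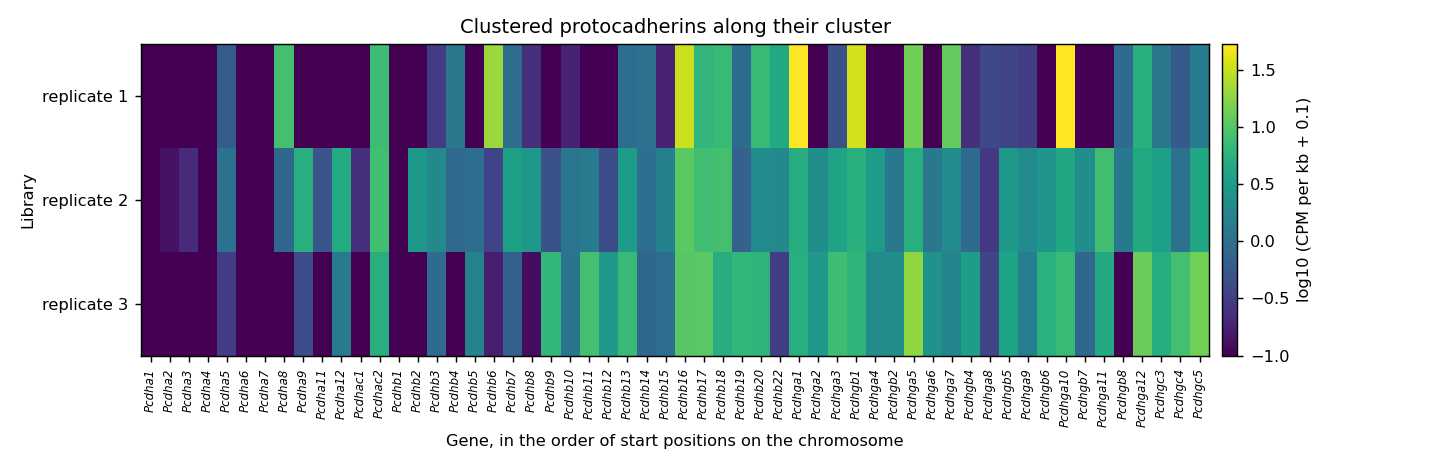
Level of 56 clustered protocadherins in replicates 1 to 3 (rows), as log10 of CPM per kb plus 0.1 (colour), in the order of their start positions on chromosome 18. The alpha genes at the left are mostly dark, Pcdhb16 to Pcdhb18 near the end of the beta array are bright in all libraries, and replicate 1 alternates between very bright genes such as Pcdhga10 and genes at 0.

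Along the chromosome, levels were higher toward the end of the beta array. The first 10 beta genes had a median of 0.946 CPM per kb and the last 11 of 3.21. As a description, the Spearman correlation of position with mean level was 0.560 over the 21 beta genes, 0.614 over 11 alpha genes and -0.192 over 19 gamma genes. The genes of an array share libraries, sequence and, for alpha and gamma, exons, so they are not independent points.

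Counts of many single members differed several-fold between the libraries, as those of most genes did. A gene was said to vary when a Poisson chi-square test across the 3 libraries had an adjusted p under 0.05 and its highest and lowest log2 CPM were at least 2 apart, a 4-fold range. Of the 76 members tested, 53 (69.7%) varied, against 63.9% of 13310 genes. This test compares these libraries and no condition, and it weighs their spread against counting error alone, taking PCR copies as separate molecules. By that p alone 97.9% of all genes and 74 of the 76 members passed, so the 4-fold range sets the calls. By family, 37 of 46 clustered protocadherins varied, 7 of 12 classical cadherins, 5 of 11 non-clustered protocadherins, 3 of 6 Celsr and Fat genes and 1 of 1 other cadherin. The median log2 range was 3.77 among the clustered genes, 2.11 among the classical, 1.63 among the non-clustered and 1.80 among the Celsr and Fat genes, against 2.78 over all genes. The 5 largest ranges among members with a mean of at least 10 CPM were those of Pcdhb11 (7.95), Pcdhb6 (7.58), Pcdhga11 (7.12), Celsr3 (4.51) and Pcdhb22 (4.24). Without replicate 1, 21 of 76 members varied, against 28.5% of all genes, and of these 15 were clustered, 3 classical, 1 non-clustered and 2 Celsr or Fat genes.

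The library with the highest level differed too. Of the 76 members, 15 were highest in replicate 1, 24 in replicate 2 and 37 (48.7%) in replicate 3, where 33.6% of all genes were highest. Among the 11 non-clustered genes it was replicate 3 for 8 and replicate 1 for none.

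**Figure D5:**
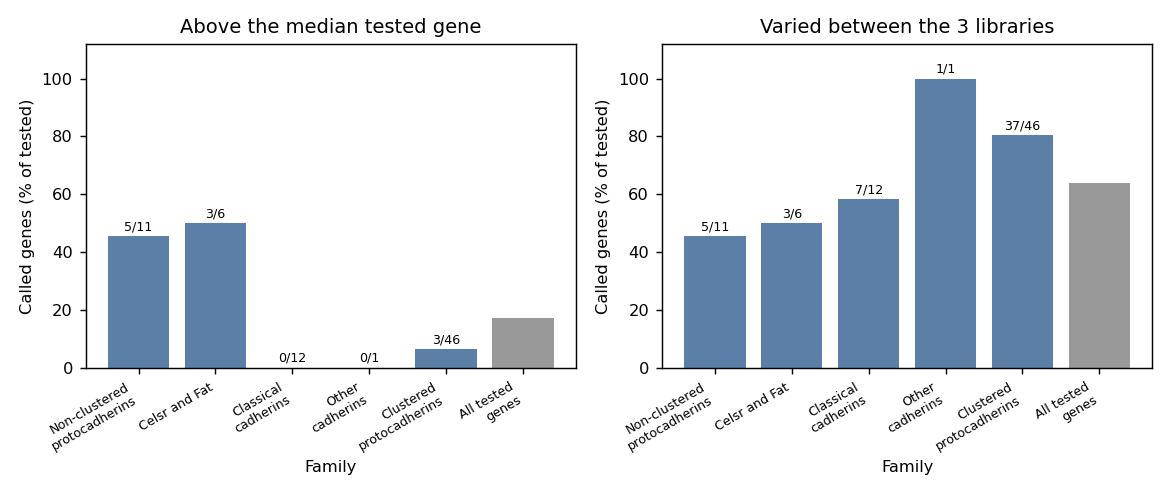
Percent of tested genes called above the median tested gene (left) and called as varying between the 3 libraries (right), for each family and for all tested genes (grey). The numbers over the bars are called and tested members, and all genes stand at 17.2% and 63.9%.

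The promoters of a few members show the range of sequence near their start sites, since CpG-rich promoters are common among broadly active genes. The windows are 300 bases around a RefSeq start on GRCm38.p6 that lies within 1000 bases of the gene's 5′ end in GENCODE, written 5′ to 3′ on the gene's strand, with each CG in capitals. They show 2 members called above the median gene (Fat3, chr9:16502005-16502304, minus strand, and Pcdh19, chrX:133688944-133689243, minus strand), the highest classical cadherin (Cdh9, chr15:16728665-16728964, plus strand) and a member with 2 counts in all (Cdh26, chr2:178430265-178430564, plus strand), chosen after their values were seen.
Fat3: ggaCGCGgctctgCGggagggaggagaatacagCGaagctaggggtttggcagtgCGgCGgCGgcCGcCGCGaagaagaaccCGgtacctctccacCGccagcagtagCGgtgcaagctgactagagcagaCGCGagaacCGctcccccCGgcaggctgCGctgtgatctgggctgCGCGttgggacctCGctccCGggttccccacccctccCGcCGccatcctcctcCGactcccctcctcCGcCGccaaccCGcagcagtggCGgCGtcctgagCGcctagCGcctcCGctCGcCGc
Pcdh19: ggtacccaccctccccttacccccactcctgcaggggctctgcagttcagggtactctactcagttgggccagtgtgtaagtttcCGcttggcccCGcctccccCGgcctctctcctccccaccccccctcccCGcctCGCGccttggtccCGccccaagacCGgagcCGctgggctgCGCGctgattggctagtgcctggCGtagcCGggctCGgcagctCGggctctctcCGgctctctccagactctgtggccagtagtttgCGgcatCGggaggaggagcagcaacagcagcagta
Cdh9: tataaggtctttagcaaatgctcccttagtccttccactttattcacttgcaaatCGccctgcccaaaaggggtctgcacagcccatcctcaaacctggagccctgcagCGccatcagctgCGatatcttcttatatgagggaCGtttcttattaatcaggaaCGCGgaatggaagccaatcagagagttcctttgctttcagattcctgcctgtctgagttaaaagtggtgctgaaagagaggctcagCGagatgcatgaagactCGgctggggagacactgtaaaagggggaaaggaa
Cdh26: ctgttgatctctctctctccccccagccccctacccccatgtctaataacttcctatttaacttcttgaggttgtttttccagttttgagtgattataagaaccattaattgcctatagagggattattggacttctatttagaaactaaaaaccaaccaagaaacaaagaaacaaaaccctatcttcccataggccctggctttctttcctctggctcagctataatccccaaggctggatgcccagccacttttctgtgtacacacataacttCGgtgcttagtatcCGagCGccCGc
Fat3 had 35 CG pairs and 71.3% G or C, Pcdh19 had 18 and 67.7%, Cdh9 had 8 and 48.7% and Cdh26 had 4 and 44%. CG reads the same on both strands, so each pair is counted once. Among the 22 members with such a window, the 7 called above had a median of 25 CG pairs (11 to 40), the 10 tested but not called 16 (4 to 24) and the 5 not tested 7 (4 to 38). All 32851 RefSeq windows, whatever their distance from a GENCODE end, had a median of 7, and 26.5% had at least 20, as did 4 of the 7, 3 of the 10 and 2 of the 5. The ranges of these groups overlapped, and the counts of pairs are a description.

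Partners of these proteins were taken from lists of 66 counted genes, of which 53 were tested. Above the median gene were 21 of the 53 by edgeR, against 17.2% of all tested genes, 20 by limma and 19 by DESeq2. None was below by any of the 3, against 0% of all tested genes by edgeR, 0.146% by limma and 0.0162% by DESeq2. At an unadjusted p under 0.05 in edgeR, 0 partners were below, against 3 of the 12329 tested genes. Of the catenins and their relatives, which tie cadherin tails to actin or keep them at the membrane, 5 of 10 were above. Pkp4 had 70.0, 65.7 and 117 CPM per kb (84.4 ± 28.7, SD, n = 3; log2 level 4.78, adjusted p = 3.82e-08), and Ctnnd2, or delta-catenin of synapses, had 80.8, 81.0 and 77.3 (79.7 ± 2.10, SD, n = 3; log2 level 4.73, adjusted p = 5.50e-08). Both exceeded every cadherin in mean level per kb. Of 9 other cadherin superfamily genes 2 were above, the calsyntenins Clstn2 at 44.4 ± 22.1 and Clstn1 at 33.2 ± 21.5 CPM per kb (SD, n = 3 each). Of 11 planar polarity partners of Celsr and Fat 2 were above, Prickle2 at 48.7 ± 14.8 and Fzd3 at 21.0 ± 2.999 CPM per kb (SD, n = 3 each).

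Of 9 factors of clustered promoter choice 4 were above, among them the cohesin subunits Smc1a at 43.7 ± 13.4 and Smc3 at 42.9 ± 28.2 CPM per kb (SD, n = 3 each). Ctcf, which binds the promoters and their enhancer and loops them together, had 79, 1970 and 516 counts and was not called (log2 level 1.61, adjusted p = 0.523). Of 14 genes of protocadherin signalling and shedding 8 were above. The highest were Nckap1 at 358 ± 167 and Cyfip2 at 268 ± 124 CPM per kb (SD, n = 3 each), subunits of the WAVE complex that delta2 protocadherin tails bind, with log2 levels of 6.76 (adjusted p = 2.25e-12) and 6.59 (adjusted p = 1.08e-11). Nckap1 was lowest in replicate 1, at 168 against 482 and 424 CPM per kb in replicates 2 and 3, and Cyfip2 was highest there, at 410 against 181 and 212.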

How the data were processed

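Ribosome-bound RNA of 3 libraries was counted per gene. The deposited values are whole-number read counts per gene symbol, made, per the submitters' processing notes, with STAR 2.0.0e and HTSeq on mm10. Which annotation, strand setting and filters applied is not given in the sources used here. Summary rows (no feature, ambiguous, several places), 50.7, 35.4 and 40.5% of reads for no feature, stayed out of library sizes and tests.

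From the counts, CPM used TMM scaling (edgeR 4.0.16, R 4.3.3; factors 0.757, 1.24 and 1.07). Exon lengths came from GENCODE vM21 on GRCm38 for 73.4% of rows and leave out bases shared with another counted gene, strand ignored. Tested genes had a mean of at least 1 CPM and at least 100 such bases. Levels were tested with an intercept-only quasi-likelihood fit whose offsets hold library size, length and each library's median tested gene. Since glmTreat takes no design of 1 column, its worst-case form at a log2 threshold of 1 was written out, two-sided, with Benjamini-Hochberg adjustment over all 12329 genes. Variation was tested by Poisson chi-square with log2 CPM ranges at a prior count of 2. Both were tested on simulated data. Alternatives included limma 3.58.1 and DESeq2 1.42.0, other lengths, filters and scalings, thinned libraries and each library left out.

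Members, families, lists and tests were chosen with earlier results of these data known. Named were the 3 members of each class with the highest level, all Celsr, Fat and C-type genes, the 5 largest ranges and the 2 highest of each partner list. Further members were named after their values were seen. Promoters came from RefSeq, where 28 members off chromosome 18 matched. Of these, 6 whose window lay more than 1000 bases from the GENCODE 5′ end were left out. Other sequences were not used here.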

Additional observations from a re-analysis of the deposited data

How the results depend on the processing

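Against 11 members above the median gene, 18 were called without length correction, 6 with limma, 5 with DESeq2, 22 with no filter, 2 with filterByExpr, 19 at a log2 threshold of 0 and 5 to 12 with 1 library left out. The backgrounds moved too, to 21.3% of all genes without length correction, 12.6% with limma and 12.04% with DESeq2. They were 24.6% with no filter, 13.5% with filterByExpr and 28.8% at a threshold of 0. Without replicates 1, 2 and 3 they were 16.8, 12.1 and 12.9%. Members below numbered 3 of 89 with no filter (Cdh3, Cdh15 and Cdh26, each at 0 in 2 libraries), against 2.40% of all genes. With filterByExpr 1 of 45 was below (Pcdh11x), against 2.92% of all genes, and 1 partner gene was below as well. Both ways of 1 common scaling and the thinned libraries gave 11. Fat3 was called in 13 of 14 alternatives, failing with filterByExpr (log2 level 2.02, adjusted p = 0.0554), and Pcdh1 and Pcdh19 in 13, failing without replicate 3. Pcdhga1 and Pcdhga10 were called in 7 of 14. Varying members numbered 23 with filterByExpr, which tested 45, where 45.0% of all genes varied. With 1 library left out they numbered 21 to 39, of 76, 67 and 74 members tested without replicates 1, 2 and 3. The shares of all genes there were 28.5, 48.8 and 49.0%. Median log2 levels of the non-clustered genes were 2.36 without length correction, 1.94 over tested members and 0.068 as a mean, those of the Celsr and Fat genes 2.72 and, as a mean, -0.52, and that of classical cadherins was 0.35 over tested members. The cause of these shifts was not tested, apart from filters and left-out libraries, which change the genes and samples tested. Of 480 single-gene alternatives none changed the sign of a level called in the main or the alternative setting. The 480 include many levels called in neither, and such levels did change sign. That of Pcdha8 ran from -3.30 to 1.66 over the alternatives. No paired analysis was possible because there is only 1 group. In replicate 1, 39 members were at 0, against 14 and 26 in replicates 2 and 3 thinned to its depth, so most of the gap remained at equal depth.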
